A study of Mus musculus with 60 samples.

Results

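The translation initiation factor genes were taken as every gene named alone by an array probe set whose symbol starts with Eif1 to Eif6, leaving out the eIF2 kinases and the sex-linked copies of the eIF2 gamma subunit. The rule found 41 genes of the 18194 that a probe set named alone, and each was represented by its probe set with the highest mean over the 60 arrays. The arrays measured total RNA of 25 early-onset lymphomas (32 to 76 days of age) and 25 late-onset lymphomas (253 to 649 days) of Eµ-myc transgenic mice, and of 10 normal tissues of wild-type mice. The transgene places Myc under the immunoglobulin heavy chain enhancer, which is active in B cells, so every tumour carried it and no normal tissue did. The normal tissues were 6 lymph nodes of young mice (38 to 73 days), and 3 lymph nodes and 1 spleen of old mice (304 to 438 days). Each array held 1 tumour or 1 piece of tissue, and nothing in the labels ties samples to a shared mouse, litter or day; p-values therefore rest on the variation among the arrays of a group, part of which may be technical. Of the 41 genes, 40 passed the filter on low values, which asked for an intensity above the array's own median on at least 10 of the 60 arrays. For 39 of them this held on all 60 arrays, and for Eif5a2 on 50. Eif4a3, which encodes a helicase of the exon junction complex, passed on 0 arrays (mean intensity 26.6) and was not tested. Eif1, Eif2s1, Eif3g, Eif4g1 and Eif4ebp3 were not analysed here.

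Translation starts when the small ribosomal subunit, loaded by eIF2 with the initiator tRNA, binds a capped mRNA and scans to the start codon. eIF2B recharges eIF2 with GTP, eIF3 is the scaffold on the small subunit, and the eIF4F complex (the cap-binding protein eIF4E, the scaffold eIF4G and the helicase eIF4A) brings the mRNA; proteins of the 4E-BP family hold eIF4E back. Myc is known for raising the machinery of protein synthesis in B cells, and it binds DNA as a dimer with Max at the E-box CACGTG.

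Promoter sequence is shown for the genes in which that E-box lay in the window from 250 bases before to 50 bases after a RefSeq transcript start (GRCm38.p6), because the lymphomas were made by Myc. Of the 41 genes, 32 had such a window, and 9 of these 32 (28.1%) held CACGTG, which reads the same on both strands. Over all protein-coding genes with a window the share was 8.91% (1559 of 17492). The 9 genes were Eif1b, Eif3a, Eif3f, Eif3k, Eif4a1, Eif4e, Eif4h, Eif5a and Eif5a2. Stretches upstream of the start are printed for the cap-binding protein gene Eif4e, the helicase gene Eif4a1, the helicase cofactor gene Eif4h and the pair Eif5a and Eif5a2, with each E-box in capitals and the strand of the gene.
Eif4e, chr3:138527018-138527072, plus strand: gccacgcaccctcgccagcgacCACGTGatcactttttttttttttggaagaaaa
Eif4e, chr3:138527177-138527236, plus strand: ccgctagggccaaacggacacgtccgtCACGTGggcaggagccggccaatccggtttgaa
Eif4a1, chr11:69672580-69672639, minus strand: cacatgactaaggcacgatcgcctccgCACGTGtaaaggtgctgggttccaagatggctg
Eif4h, chr5:134639473-134639532, minus strand: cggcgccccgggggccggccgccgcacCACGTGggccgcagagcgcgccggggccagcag
Eif5a, chr11:69920776-69920835, minus strand: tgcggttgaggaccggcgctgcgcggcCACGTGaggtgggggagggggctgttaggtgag
Eif5a, chr11:69921428-69921487, minus strand: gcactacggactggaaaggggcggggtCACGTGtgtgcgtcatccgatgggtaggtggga
Eif5a2, chr3:28781108-28781167, plus strand: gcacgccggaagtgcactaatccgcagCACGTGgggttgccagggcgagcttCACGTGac
In Eif4e the E-boxes began 228 and 64 bases before the start, in Eif4a1 189, in Eif4h 96, in Eif5a 178 and 74, each before a different one of its RefSeq starts, and in Eif5a2 142 and 117. A second motif, CCGGAAGT, of the type that ETS factors bind, was searched on both strands and was found in 7 of the 32 genes (21.9%), against 5.69% of protein-coding genes. A match describes these letters only; no binding was measured.

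Across the series, Myc intensity lay between 8909 and 18542 in early lymphomas, 4964 and 19707 in late lymphomas and 880.3 and 1606 in normal tissue, with no overlap between tumours and normal tissue. Intensities had been scaled by the authors with MAS5 to a common trimmed mean on every array. Array medians still differed, at 124.2 to 205.7 in early lymphomas, 122.3 to 184.4 in late lymphomas and 183 to 197.6 in normal tissue. The median change of all 27094 probe sets against normal tissue was -0.12 in early and -0.09 in late lymphomas on the log2 scale, and 0.22 and 0.19 after each array was centred on its own median. The tissues also differed in makeup: the summed intensity of 10 measured T cell genes was 17650 to 36782 in normal tissue, 1602 to 5623 in early and 2114 to 42570 in late lymphomas. Summed over 14 mitotic genes it was 7299 to 19772, 49597 to 80253 and 12119 to 72513, in the same order. In bulk tissue a lower share of a cell type and less RNA per cell cannot be told apart, and the part of cell makeup in the values below was not tested.

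Most initiation factor genes were higher in lymphoma than in normal tissue. In early lymphomas 34 of the 40 tested genes rose and 3 fell (Eif4a2, Eif4e3 and Eif5a2) with limma's test at an adjusted p under 0.05, while 28.4% of all probe sets rose and 39.8% fell. In late lymphomas 34 rose and 2 fell (Eif4a2 and Eif4e3), against 22.4% and 32.4% of all probe sets. The median change over the 40 genes was 0.77 in early and 0.67 in late lymphomas on the scale log2(intensity + 15.7), which understates the change of dim genes. Both comparisons use the same 10 normal tissues, so their values are given side by side and not as independent evidence. For 23 genes every early lymphoma lay above every normal tissue, as did 10.2% of all probe sets; for 15 genes every late lymphoma did, as did 2.89% of probe sets, and 14 genes were in both sets. With centring, 45.6% of all probe sets rose and 24.4% fell in early lymphomas (38.4% and 19.9% in late), and 37 of the 40 genes rose in early and 36 in late lymphomas.

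**Figure D1:**
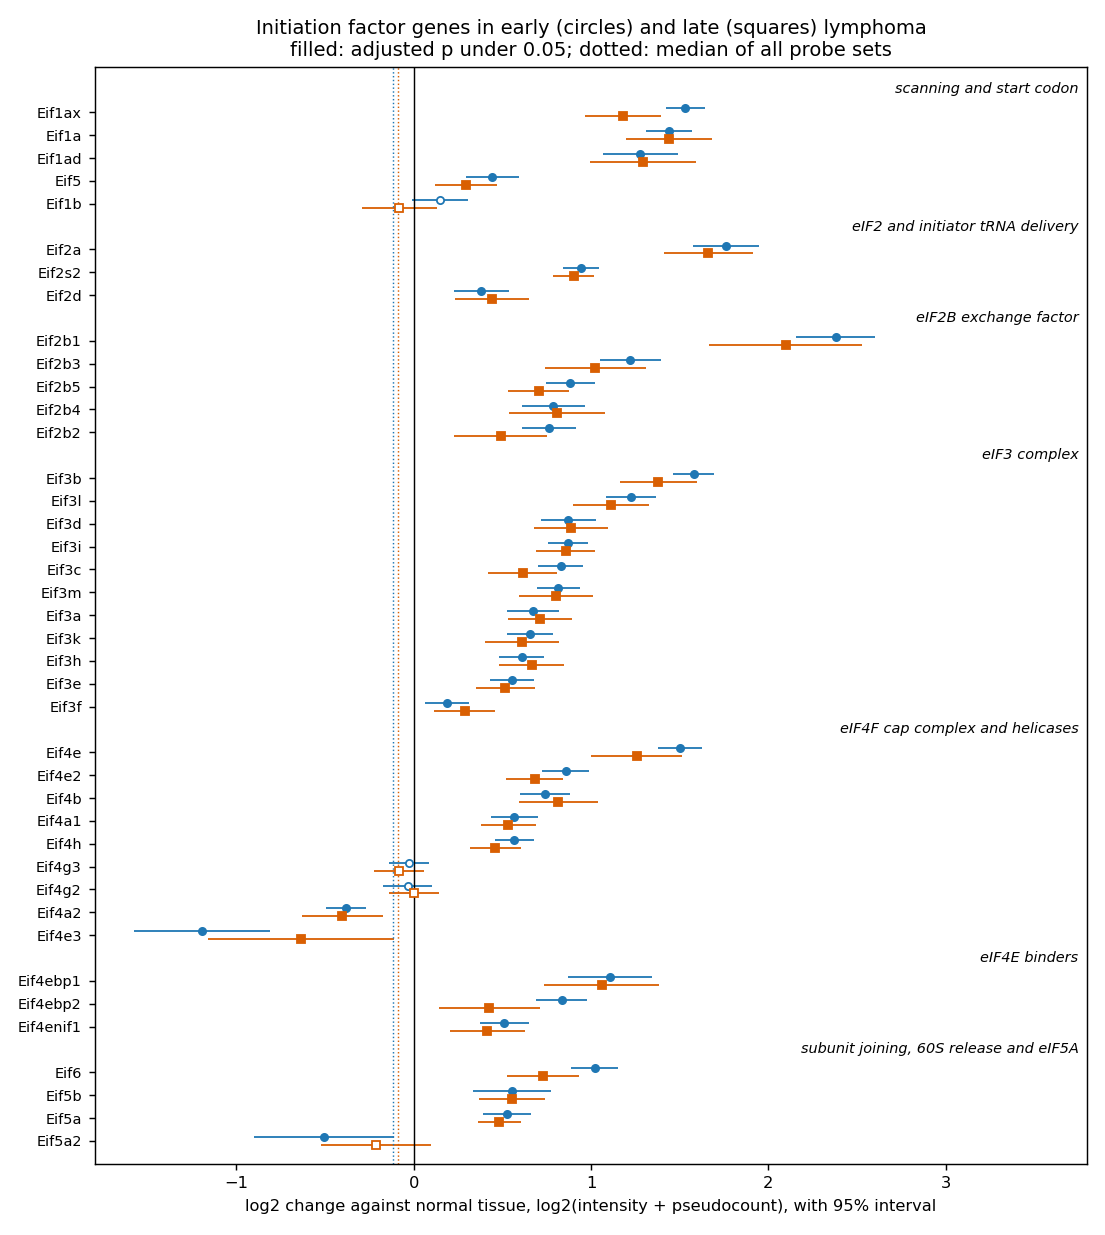
Log2 change against normal tissue, with its 95% interval, for the 40 tested genes by role, in early lymphomas (blue circles, n = 25) and late lymphomas (orange squares, n = 25) against 10 normal tissues; filled symbols passed an adjusted p under 0.05 and the dotted lines are the medians of all probe sets. The eIF2B and eIF3 genes lie to the right of 0 throughout, and Eif4a2, Eif4e3 and Eif5a2 to the left.

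The genes of initiator tRNA delivery were measured by Eif2s2, Eif2a and Eif2d, and all 3 rose in both lymphoma groups. Eif2s2, which encodes the beta subunit of eIF2, lay between 4585 and 5228 in normal tissue (median 4956), between 8023 and 11453 in early lymphomas (9514) and between 7257 and 11208 in late lymphomas (9314). Neither lymphoma group overlapped normal tissue, and the change was 0.94 ± 0.05 (SE) in early and 0.90 ± 0.06 in late lymphomas. Eif2a, whose product can deliver the initiator tRNA without GTP, went from 381.4 to 562.1 in normal tissue (median 493.7), from 1153 to 2697 in early lymphomas (1694) and from 908.5 to 3019 in late lymphomas (1702). These groups did not overlap either, and the changes were 1.76 ± 0.09 (adjusted p = 6.4e-19, limma) and 1.66 ± 0.13 (4.9e-13). Eif2d, for a factor that can bring initiator tRNA to the ribosome outside the eIF2 route, changed less, by 0.38 ± 0.08 and 0.44 ± 0.11, and its groups overlapped.

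All 5 subunit genes of eIF2B, the exchange factor that reloads eIF2 with GTP, rose in both groups. Eif2b1, which encodes the alpha subunit through which the complex senses phosphorylated eIF2, showed the largest rise of the 40 genes in both comparisons. Its intensity was 301.4 to 540 in normal tissue (median 401.4), 1201 to 3243 in early lymphomas (2179) and 720.4 to 4092 in late lymphomas (1846). The lowest tumour lay above the highest normal tissue, and the fold was 5.20 in early lymphomas (log2 change 2.38 ± 0.11, adjusted p = 1.5e-20) and 4.28 in late lymphomas (2.10 ± 0.22, 5.3e-10, limma). Eif2b3, the gamma subunit gene, went from a normal range of 300.2 to 475 to 644.4 to 1252 in early and 477.3 to 1838 in late lymphomas. Its lowest late lymphoma, number 136, was just above the highest normal tissue. Eif2b5, which encodes the catalytic epsilon subunit, rose by 0.88 ± 0.07 and 0.70 ± 0.09, Eif2b4 by 0.79 ± 0.09 and 0.81 ± 0.14, and Eif2b2 by 0.76 ± 0.08 and 0.49 ± 0.13. In these 3 genes every early lymphoma lay above normal tissue, but only 24, 22 and 21 of the 25 late lymphomas did.

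The eIF3 complex was represented by 11 subunit genes, and each rose in both comparisons, by 0.19 to 1.58 in early and 0.29 to 1.38 in late lymphomas. Eif3b, a core subunit that binds the small ribosomal subunit, was at 2683 to 3701 in normal tissue (median 2958), at 7664 to 11027 in early lymphomas (9022) and at 5089 to 11876 in late lymphomas (7805). The groups of tumours lay wholly above normal tissue, with changes of 1.58 ± 0.06 (adjusted p = 1.5e-23) and 1.38 ± 0.11 (1.6e-12). Eif3l followed, at 3188 to 4008 in normal tissue, 6230 to 11044 in early and 5330 to 10953 in late lymphomas, again without overlap. Eif3d, Eif3h and Eif3i also had no tumour of either group within the normal range.

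At the other end stood Eif3f, the smallest rise of the complex. It was at 9856 to 13447 in normal tissue (median 11560), 10093 to 16772 in early lymphomas (13303) and 9109 to 18799 in late lymphomas (14589), so the groups overlapped widely. Its changes were 0.19 ± 0.06 (adjusted p = 0.0085) and 0.29 ± 0.09 (0.0052). The calls were lost with quantile normalization (0.04, p = 0.42, and 0.09, 0.2), and the late call with old normal tissue only (0.14, 0.43). Eif3e, a subunit known as an integration site of mouse mammary tumour virus, rose by 0.56 ± 0.06 and 0.52 ± 0.08, and Eif3a, the largest subunit, by 0.67 ± 0.07 and 0.71 ± 0.09, with 24 of 25 lymphomas of each group above normal tissue for Eif3a. Eif3c, Eif3m and Eif3k rose by at least 0.61 in each group.

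The genes of the cap complex did not move together: of 9 tested, 5 rose, 2 fell and 2 were not called, in early and in late lymphomas alike. Eif4e, which encodes the cap-binding protein and whose promoter stretches are printed above, was at 2209 to 2818 in normal tissue (median 2538), at 5440 to 9152 in early lymphomas (7221) and at 3693 to 9451 in late lymphomas (6542). No tumour reached down to normal tissue, and the fold was 2.83 in early lymphomas (1.50 ± 0.06, adjusted p = 5.4e-22) and 2.39 in late lymphomas (1.26 ± 0.13, 4e-10). Eif4e2, a homologue that binds the cap and acts in repression, rose by 0.86 ± 0.07 and 0.68 ± 0.08, also without overlap, although another of its probe sets fell (-0.48 and -0.51). The helicase gene Eif4a1 went from 10169 to 13061 in normal tissue to 11717 to 20749 in early and 11234 to 24253 in late lymphomas, with 24 of 25 tumours of each group above normal tissue and changes of 0.57 ± 0.07 and 0.53 ± 0.08. Its cofactor genes Eif4b (0.74 ± 0.07 and 0.82 ± 0.11) and Eif4h (0.57 ± 0.06 and 0.46 ± 0.07) rose as well.

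Eif4a2, which encodes a close homologue of the Eif4a1 helicase, was lower in lymphoma. It lay between 10910 and 13897 in normal tissue (median 12274), 7768 and 11819 in early lymphomas (9118) and 4937 and 13381 in late lymphomas (9299). Below every normal tissue were 24 of 25 early and 17 of 25 late lymphomas. The change was -0.38 ± 0.06 (adjusted p = 3.2e-07) and -0.40 ± 0.12 (0.0034, limma), but with every array centred on its median it was -0.04 (p = 0.65) and -0.12 (0.38), so the calls were lost under that scaling. Eif4e3, a cap-binding homologue of eIF4E, was at 909 to 1348 in normal tissue (median 1160), 201 to 1155 in early lymphomas (496) and 269.1 to 2333 in late lymphomas (867.7). It was below every normal tissue in 23 early and 13 late lymphomas and above all of them in 4 late lymphomas. Its change was -1.19 ± 0.20 (adjusted p = 1.4e-06) in early lymphomas, with a range of -1.23 to -0.85 over the settings tried, and -0.64 ± 0.27 (0.043) in late lymphomas, where 5 alternatives raised the adjusted p to between 0.053 and 0.25.

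The scaffold genes were not called in the comparison as designed. Eif4g3 was at 2592 to 3099 in normal tissue and 2140 to 3404 in early lymphomas, a change of -0.03 ± 0.06 (adjusted p = 0.71). The change turned to 0.31 after centring, and it was called lower with quantile normalization (-0.22, p = 0.00093; in late lymphomas -0.26, 0.0051) and with the mean of its probe sets (-0.15, 0.047; in late lymphomas -0.28, 0.0033), so its sign depended on the scaling. For Eif4g2, whose product lacks the eIF4E-binding part and drives cap-independent starts, the probe set chosen by the rule gave -0.03 ± 0.07 in early and 0.00 ± 0.07 in late lymphomas. Its 3 other probe sets were called higher in early lymphomas, by 0.24, 0.56 and 0.31, and the mean over its probe sets rose by 0.27. The chosen probe set may match other transcripts by its design suffix, so the gene's direction is not settled by these arrays. The chosen probe sets of Eif5a, Eif4h and Eif3m bear the same suffix, and those of Eif2b2 and Eif4ebp1 one of a similar kind. They too may match other transcripts.

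The 3 genes of proteins that bind eIF4E were called higher in both groups, 2 of them less firmly in late lymphomas. Eif4ebp1, a repressor that mTORC1 phosphorylation releases from eIF4E, was at 773.8 to 2468 in normal tissue (median 1196), 1974 to 4044 in early lymphomas (2861) and 1578 to 6345 in late lymphomas (2663). The ranges overlapped, and 16 early and 18 late lymphomas lay above all 10 normal tissues. The changes were 1.11 ± 0.12 (adjusted p = 2.3e-10) and 1.06 ± 0.17 (1.3e-06); another, dimmer probe set of the gene fell (-0.38 and -0.34). Eif4ebp2, the other measured member of that family, was at 1964 to 2712 in normal tissue (median 2513), 2889 to 5763 in early lymphomas (4249) and 1708 to 5229 in late lymphomas (3340). No early lymphoma overlapped normal tissue, but 6 of the 25 late lymphomas did not exceed it, and the change was 0.84 ± 0.07 in early and 0.43 ± 0.15 in late lymphomas (adjusted p = 0.013). The late call was lost with quantile normalization (0.28, p = 0.075), with old normal tissue only (0.39, 0.19) and with the mean of its probe sets (0.05, 0.72), and none of its 3 other probe sets was called in late lymphomas (0.04, -0.20 and -0.06). In early lymphomas these 3 changed less than the chosen one, by 0.305, 0.07 (not called) and 0.17, so the size of the early rise depends on the probe set. Eif4enif1, for a protein that carries eIF4E to the nucleus and to processing bodies, rose by 0.51 ± 0.07 and 0.41 ± 0.11, and its late call was lost with old normal tissue only (0.36, adjusted p = 0.089).

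Among the scanning factors, the genes of eIF1A type rose and Eif1b was not called. Eif1ax was at 1319 to 1875 in normal tissue (median 1600), 3486 to 5175 in early lymphomas (4719) and 2441 to 5703 in late lymphomas (3702). Eif1a was at 840.5 to 1167 in normal tissue (1022), 2115 to 3363 in early lymphomas (2749) and 1226 to 4022 in late lymphomas (2686). Both encode eIF1A, which keeps the scanning complex open, and neither gene's tumours overlapped normal tissue. The changes were 1.53 ± 0.06 and 1.18 ± 0.11 for Eif1ax, and 1.44 ± 0.07 and 1.44 ± 0.12 for Eif1a. Eif1ad, which encodes a protein with an eIF1A-like domain, rose by 1.28 ± 0.11 and 1.29 ± 0.15, with no overlap. Its other probe set, of a similar mean intensity (2109.9 against 2205.7), rose less, by 0.69 and 0.55. Eif5, the GTPase activator of eIF2 at the start codon, rose by 0.44 ± 0.08 and 0.29 ± 0.09 with overlapping ranges. Its late call was lost with quantile normalization (0.02, adjusted p = 0.82), with old normal tissue only (0.15, 0.4) and with the mean of its probe sets (0.22, 0.064). Eif1b, a homologue of the start codon selection factor eIF1, was at 1450 to 1844 in normal tissue (median 1601), 1253 to 2347 in early lymphomas (1773) and 859.4 to 2272 in late lymphomas (1542), with changes of 0.15 ± 0.08 (adjusted p = 0.097) and -0.08 ± 0.11 (0.55); after centring it was called higher in early lymphomas (0.49, p = 0.00021).

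Of the factors of the last steps, all but Eif5a2 rose. Eif6, whose product keeps the large ribosomal subunit from joining too early and acts in making it, was at 1787 to 2289 in normal tissue (median 2090), 3084 to 5411 in early lymphomas (4241) and 2138 to 5047 in late lymphomas (3469). All 25 early and 24 of 25 late lymphomas were above normal tissue, and the changes were 1.02 ± 0.07 and 0.73 ± 0.10. Eif5b, the GTPase that joins the subunits, rose by 0.55 ± 0.11 and 0.55 ± 0.09. Eif5a, whose hypusine-bearing product helps ribosomes through difficult peptide bonds, was at 13941 to 17044 in normal tissue, 14374 to 27645 in early and 18285 to 30818 in late lymphomas. It is the gene for which all late but only 23 of 25 early lymphomas exceeded normal tissue, with changes of 0.53 ± 0.07 and 0.48 ± 0.06. The other probe set of Eif5a rose more, by 1.39 and 1.24, so the size of its rise depends on the probe set. Its homologue Eif5a2 was at 199.9 to 313.3 in normal tissue (median 255.4), 57.62 to 440 in early lymphomas (191.2) and 121.5 to 511.4 in late lymphomas (215.7). The tumours spread to both sides of normal tissue, and the fall of 0.51 ± 0.20 in early lymphomas (log2, adjusted p = 0.026) was lost in 5 alternatives, among them centring (p = 0.42) and quantile normalization (0.48). Its other kept probe set fell in early (-0.98, adjusted p = 4.8e-06) and in late lymphomas (-0.78, 0.0095), and the mean of both was lower in late lymphomas as well (-0.49, 0.03).

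**Figure D2:**
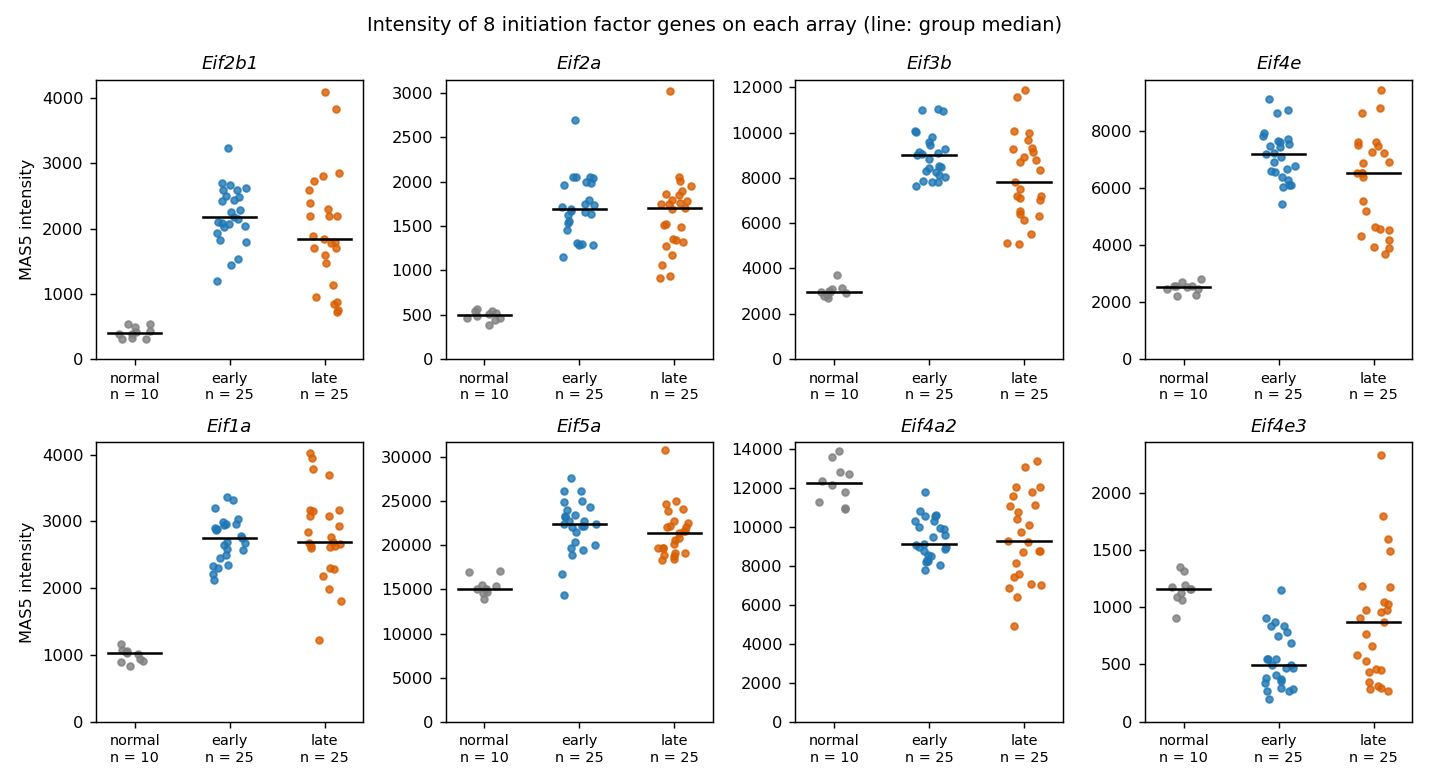
MAS5 intensity on every array for 8 genes in normal tissue (grey, n = 10), early lymphomas (blue, n = 25) and late lymphomas (orange, n = 25), with a line at each group's median and an axis from 0 in each panel. Eif2b1, Eif2a, Eif3b, Eif4e and Eif1a show no tumour within the normal range, while Eif4a2 and Eif4e3 lie mostly below it.

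Genes were also set against each other on the same array, each by its chosen probe set, where a scaling factor common to the array largely cancels. The mean of normal tissue was set to 0, so only the change of the difference is read, not the levels of different probe sets. Eif4a1 minus Eif4a2 lay between -0.26 and 0.30 in normal tissue, between 0.55 and 1.24 in early lymphomas (median 1.00) and between 0.37 and 1.57 in late lymphomas (0.86). All 25 tumours of each group were above all normal tissues, so the helicase genes changed unequally whatever such factor is used. Quantile normalization is not a common factor, and the differences were not computed under it. Eif4a1 and Eif4a2, Eif4e and Eif4e3, and Eif5a and Eif5a2 each set a gene called higher in early lymphomas against one called lower. Their differences therefore follow in part from those calls, and the share of other gene pairs that separate was not computed. Eif4e minus Eif4e3 was -0.38 to 0.50 in normal tissue, 1.44 to 4.00 in early and 0.14 to 3.55 in late lymphomas, with 25 and 21 tumours above normal tissue. Eif1a minus Eif1b was above normal tissue in 25 early and 24 late lymphomas, and Eif5a minus Eif5a2 in 23 and 20. The cap-binding protein gene and its repressors gave a mixed picture. Eif4e minus Eif4ebp2 had a median of 0.65 in early and 0.82 in late lymphomas, above all normal tissues in 19 and 24 tumours. Eif4e minus Eif4ebp1 had medians of 0.34 and 0.48 but ran from -1.13 to 0.81 in normal tissue, and only 1 early and 3 late lymphomas exceeded that range.

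**Figure D3:**
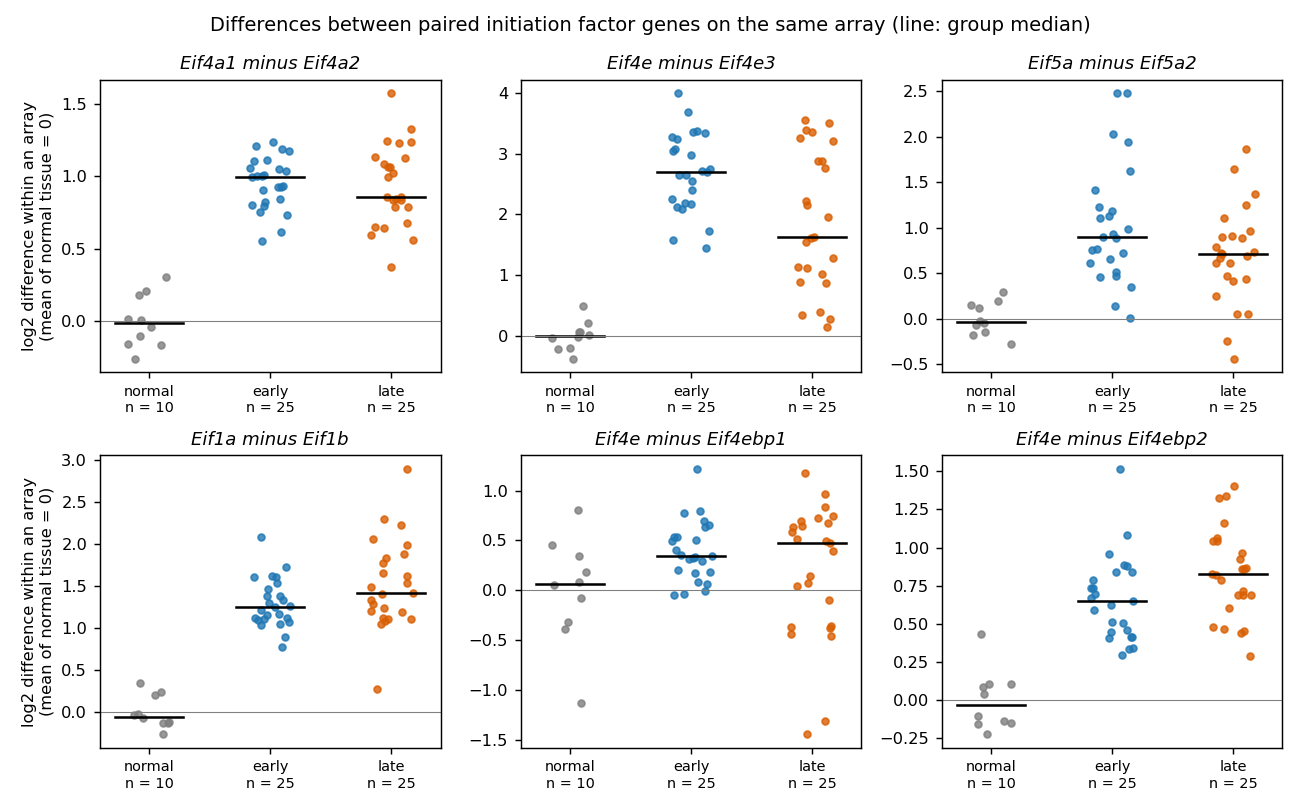
Log2 difference between the genes of 6 pairs on the same array, with the mean of normal tissue set to 0, for normal tissue (grey, n = 10), early lymphomas (blue, n = 25) and late lymphomas (orange, n = 25); lines are group medians. The pair of Eif4a1 and Eif4a2 separates all tumours from normal tissue, and the pair of Eif4e and Eif4ebp1 does not.

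Late against early lymphoma is the comparison the series was designed for. Of the 40 genes 10 were lower in late lymphomas and 1 was higher, while 12.4% of all probe sets were lower and 9.58% higher; 29 genes were not called, and the median change was -0.04. The lower genes were Eif4ebp2 (-0.41 ± 0.10, adjusted p = 0.0029, limma), Eif1ax (-0.35 ± 0.07, 0.00092), Eif6 (-0.29 ± 0.07, 0.0045), Eif2b2 (-0.27), Eif4e (-0.24), Eif1b (-0.23), Eif3c (-0.22), Eif3b (-0.20), Eif2b5 (-0.18) and Eif4e2 (-0.17). With the mean of a gene's probe sets Eif6 was at -0.05 (p = 0.62) and Eif2b2 at -0.10 (0.26), and Eif2b5 (0.07) and Eif4e2 (-0.05) were not called lower. Eif4e (adjusted p = 0.042, limma) and Eif3b (0.05) were near the threshold. Both were lost with centring, with no filter and without late lymphomas 117, 127, 130, 131 and 133, as was Eif4e2 without those tumours. Quantile normalization lost Eif3b and Eif2b5 and added Eif5 (-0.18). Eif3b was also lost with a smaller pseudocount, and Eif1b with no filter. Marker genes moved too: 14 of 14 mitotic genes (median -0.51) and 6 of 8 B lineage genes (-0.82) were lower in late lymphomas and 8 of 11 plasma cell genes were higher (1.21). In old against young normal tissue 10 of these 11 plasma cell genes were higher as well (median 1.13), beside 0.812% of all probe sets. The part of the marker genes in these calls was not tested. In none of the 10 genes did the groups separate: for Eif1ax 12 of 25 late lymphomas lay below every early lymphoma and 2 above, and for Eif4ebp2 9 lay below and none above. Eif4e3 was the gene called higher (0.56 ± 0.21, adjusted p = 0.047), with 6 late lymphomas above every early one, and that call was lost in 6 alternatives. Eif2b1 was lower by 0.28 ± 0.15 on the log2 scale without passing the test (adjusted p = 0.16). Several genes had nearly the same level in both groups, with a 95% interval of the log2 change of -0.13 to 0.10 for Eif3i and -0.16 to 0.09 for Eif4a1.

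Most of these calls were lost when 5 late lymphomas were left out. Late lymphomas 120, 125, 129, 137 and 138 had the highest sums of 11 plasma cell genes (133170 to 171006, against 37587 as the median of late lymphomas) in earlier results of these data. They also held low values of several members: Eif4ebp2 was at 1708 to 2440 in them and at 2313 to 5229 in the other 20 late lymphomas. Eif2b1 was at 720.4 to 1128 against 880.5 to 4092, Eif1ax at 2441 to 2952 against 2991 to 5703, and Eif4e at 3693 to 4638 against 3906 to 9451. For Eif1ax the sets did not overlap, and for the others they overlapped at the edge. Other members were high in these 5 tumours. Eif4a2 was at 11573 to 13381 in them, within the normal range, and at 4937 to 12042 in the other 20. Eif5 was at 7673 to 10794 against 4956 to 9369, and Eif3a at 11901 to 15466 against 7064 to 15663. Eif4ebp1 had the highest intensities of all 60 arrays in lymphomas 138 (6345) and 137 (4687). The Gapdh controls gave the log2 intensity of the 3-prime end minus that of the 5-prime end. It is read as a sign of RNA integrity, with higher values for more degraded RNA. This difference was -0.48 to -0.61 in these 5 tumours, below the medians of -0.43 in late and -0.39 in early lymphomas. Late lymphomas 121 and 133 (both -0.49) were in that range too. For the actin controls it was 0.16 to 0.42 in the 5 tumours, against 0.13 to 0.42 in all late lymphomas (median 0.21). The part of RNA integrity and of plasma cells in the low values was not tested. Without the 5 tumours 3 genes were lower in late lymphomas, of which Eif4ebp2 and Eif1ax were among the 10, and Eif5 was added (-0.22); the share of all probe sets called lower fell to 5.06%. Of the 8 lower calls lost, with 5 fewer samples, Eif2b5 (-0.17) and Eif4e2 (-0.16) kept about the same change, Eif6 (-0.20) and Eif2b2 (-0.18) most of it, while Eif4e was at -0.11, Eif3b at -0.10, Eif3c at -0.12 and Eif1b at -0.14. With the RNA ratios as covariates Eif1ax alone was called, beside 3.61% of probe sets.

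**Figure D4:**
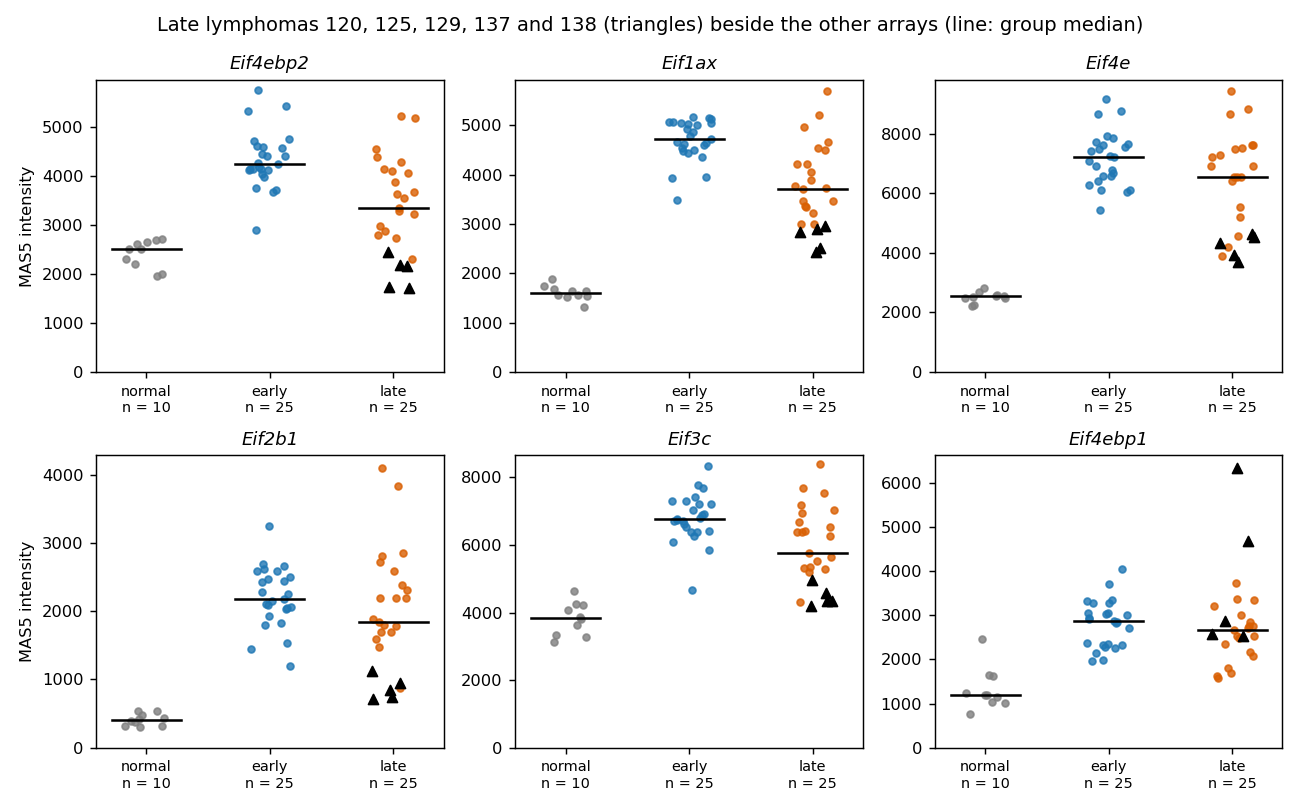
MAS5 intensity of 6 genes in normal tissue (grey, n = 10), early lymphomas (blue, n = 25) and late lymphomas (orange, n = 25), with late lymphomas 120, 125, 129, 137 and 138 as black triangles and a line at each group's median. The triangles lie at the bottom of the late group for Eif4ebp2, Eif1ax and Eif2b1, and lymphomas 137 and 138 at the top for Eif4ebp1.

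Most of the genes were also measured by other probe sets. Of 62 such probe sets, 56 belonged to genes called in early lymphomas, and 44 of these had the same call, 10 were not called and 2 had the opposite call, those of Eif4e2 and Eif4ebp1 named above. In late lymphomas the counts were 37, 16 and 2 of 55. Against early lymphomas, 8 of 19 probe sets of the called genes had the same call in late lymphomas, 11 were not called and none was opposite.

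Late lymphomas also varied more among themselves. The median SD of the 40 genes was 0.31 (log2) in late lymphomas, 0.20 in early lymphomas and 0.12 in normal tissue, beside 0.48, 0.36 and 0.24 over all probe sets. Tested as the absolute deviation from the group median with limma, 8 genes varied more in late lymphomas, among 10.1% of all probe sets. They were Eif2b1, Eif4ebp2, Eif4e, Eif1ax, Eif4a2, Eif3b, Eif3c and Eif3m, with Eif2b1 deviating by 0.30 ± 0.10 more and Eif4ebp2 by 0.22 ± 0.06 more. Without the 5 late lymphomas named above none of the 40 was called, nor with the RNA ratios as covariates, and 1 was called after centring.

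No initiation factor gene was called between normal tissues of different age. Between 4 old and 6 young normal tissues 0 of the 40 genes were called by limma (5 at an unadjusted p under 0.05, lowest adjusted p 0.074), beside 1.38% of all probe sets in either direction. The lowest adjusted p belonged to Eif3c, at -0.31 ± 0.07 in old tissue, and Eif2b1 was at -0.31 ± 0.16 (0.36). The difference between the late-minus-early and the old-minus-young change was called for 0 genes (2 unadjusted), beside 0.0258% of probe sets. Within the late lymphomas no slope on age of onset was called (8 unadjusted), beside 0.0111% of probe sets.

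Within the early lymphomas 4 genes rose with age of onset, per doubling of age: Eif2a by 0.57 ± 0.16, Eif1b by 0.47 ± 0.14, Eif3d by 0.43 ± 0.14 and Eif1ax by 0.36 ± 0.08 (adjusted p = 0.01, limma). Over all probe sets 2% rose. Without the 2 early lymphomas farthest from the median age, numbers 1 and 2, none was called, and the slopes were 0.93 for Eif2a (adjusted p = 0.17), 0.30 for Eif1ax (0.35), 0.28 for Eif3d (0.64) and 0.25 for Eif1b (0.69). With quantile normalization 0 genes were called and with centring 31, so their number follows the scaling.

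Levels were also set against the Myc level of the same tumour, measured on the same array and so sharing its scaling. In late lymphomas 6 genes rose with Myc, among 2.75% of all probe sets. In the same fit 4 of 10 macrophage genes and 1 of 10 stroma and endothelium genes fell with Myc, beside 3.34% of all probe sets. No T cell, plasma cell or B lineage gene was called, and the part of cell makeup in the slopes was not tested. Per doubling of Myc, Eif2b1 rose by 1.05 ± 0.28 (adjusted p = 0.026, limma), Eif2b3 by 0.76 ± 0.17 (0.012), Eif2a by 0.57 ± 0.17 (0.04), Eif3b by 0.53 ± 0.14 (0.029), Eif3c by 0.43 ± 0.13 and Eif3i by 0.40 ± 0.11. Lymphomas 136 and 126 had the lowest and highest Myc of this group, 4964 and 19707, and without both no slope was called. The slopes themselves were then as large or larger for Eif2b1 (1.62, adjusted p = 0.054), Eif2b3 (1.02, 0.059), Eif2a (0.61, 0.2), Eif3c (0.61, 0.1) and Eif3b (0.58, 0.16), and smaller for Eif3i (0.35, 0.24), over a narrower range of Myc and fewer tumours. Lymphoma 136 was also the lowest late lymphoma for Eif1a, Eif1ad, Eif2b3, Eif2b4, Eif2b5, Eif2s2, Eif3a, Eif3d, Eif3h, Eif3i, Eif3m and Eif5b. In early lymphomas Eif3d (0.51 ± 0.13) and Eif3b (0.38 ± 0.09) rose with Myc, among 0.502% of probe sets; without lymphomas 2 and 21 the slopes were 0.43 (adjusted p = 0.13) and 0.43 (0.049). Centring raised the counts to 22 in late and 34 in early lymphomas, while quantile normalization gave 12 and 0.

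The genes that act beside the initiation factors were read from lists chosen with earlier results known; beside them, 28.4% of all probe sets rose and 39.8% fell in early lymphomas, and 22.4% and 32.4% in late lymphomas. Of 7 genes of hypusine and polyamine metabolism, which supplies the modification of eIF5A, 6 rose and 1 fell in early lymphomas (5 and 1 in late). The list holds genes of breakdown and restraint as well as of synthesis, so the count is not one of synthesis alone. The spermidine synthase gene Srm rose by 2.24 ± 0.08 in early and 2.23 ± 0.11 in late lymphomas, the ornithine decarboxylase gene Odc1 by 1.55 ± 0.11 and 1.28 ± 0.14, and the hydroxylase gene Dohh by 1.27 ± 0.11 and 1.17 ± 0.11. Sat1, which encodes an enzyme that breaks polyamines down, fell (-0.73 ± 0.12 and -0.72 ± 0.14). Of 12 genes of poly(A) binding and accessory initiation factors, 10 rose and 1 fell in early lymphomas (6 and 0 in late), with Pabpc4 at 1.92 ± 0.09, Denr at 1.47 ± 0.08 and Larp1 at 1.30 ± 0.06 in early lymphomas. Of 10 genes listed for elongation and termination 7 rose and none fell (6 and 0 in late). The largest rises were those of Eef1e1 (1.80 ± 0.12) and the release factor gene Gspt1 (1.51 ± 0.07), while the elongation factor gene Eef1a1 was at -0.04 ± 0.10. Despite its symbol, Eef1e1 encodes a protein of the tRNA synthetase complex and not an elongation factor.

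Of 13 genes of mTORC1, S6 kinase and Mnk signalling, 5 rose and 7 fell in early lymphomas (4 and 7 in late), which is 38.5% and 53.8% in early lymphomas beside 28.4% and 39.8% of all probe sets. Mtor itself rose by 0.83 ± 0.19 and 0.55 ± 0.18, whereas the mTORC1 inhibitor genes Ddit4 (-1.33 ± 0.24 and -0.77 ± 0.30) and Deptor (-0.89 ± 0.14 and -0.70 ± 0.23) fell. Mknk1, for a kinase that phosphorylates eIF4E, fell as well (-0.69 ± 0.11 and -0.36 ± 0.14). Pdcd4, an inhibitor of the eIF4A helicase, was lower too in early lymphomas (-0.66 ± 0.15). Of 12 genes of eIF2 kinases and the stress response, 4 rose and 4 fell in early lymphomas (5 and 2 in late), a share of 33.3% each way in early lymphomas and so near that of all probe sets. The amino acid sensor gene Eif2ak4 rose by 1.18 ± 0.15 and 0.83 ± 0.25 and Atf4 by 0.66 ± 0.07 and 0.64 ± 0.11, while its target gene Ddit3 (-1.23 ± 0.13 and -1.17 ± 0.23) and the eIF2 phosphatase gene Ppp1r15a (-0.97 ± 0.16 and -0.83 ± 0.22) fell.

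The changes of genes with and without an E-box in the promoter window were set side by side, with no test. Of the 9 genes with CACGTG 7 rose and 1 fell in early lymphomas, with a median change of 0.57, and of 22 tested genes with a window but without it 20 rose and 1 fell, with a median of 0.83. In late lymphomas the medians were 0.48 and 0.75. Eif5a2, which has the pair of E-boxes printed above, is the 1 that fell, and Eif2b1 and Eif3b had a window without CACGTG. These counts are a description, since window and probe set were not chosen to match.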

How the data were processed

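Each of the 60 arrays held total RNA of 1 tumour or normal tissue. The deposited intensities come from MAS5 in the authors' hands, according to the submitters' processing notes, where its version is absent; the trimmed mean was 500.00 on every array. Of 45101 probe sets, 34958 named 1 gene in the platform annotation, 932 several and 9211 none, and 34754 of those with 1 gene matched the RefSeq table by identifier. Leaving out 64 control probe sets and dim ones left 27094. The 41 genes were named by 115 probe sets, of which 102 were kept.

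From these intensities log2(intensity + 15.7) was computed, 15.7 being the table's median (157) divided by 10. limma 3.58.1 (R 4.3.3; lmFit, eBayes with a trend) gave two-sided tests with Benjamini-Hochberg adjustment over all kept probe sets at 0.05, on only the groups compared. Normal tissue pooled young and old samples. Early lymphomas and normal tissues share 9 numbers in their titles, but nothing in the labels says that these pair samples. The correlation of same-numbered deviations was -0.11 to 0.08. A low correlation between a tumour and a normal tissue cannot exclude a shared litter or day. The fits were tested on simulated data. Correlations between arrays were 0.677 to 0.971, and no arrays were identical. The number of arrays limits precision. Groups came from the labels. Named genes were up to 12 rises and falls per main comparison, certain fixed members, and up to 3 genes each way of other lists. Alternatives covered the pseudocount, filter, scaling, RNA ratios, probe sets and samples. The members, lists and alternatives were chosen with earlier results of these data known. Tables were made with pandas 2.3.3 and numpy 2.4.6 under Python 3.11.15, and plots with matplotlib 3.10.9.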

Additional observations from a re-analysis of the deposited data

Results flagged for a closer look

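Each gene's values in the 6 young and in the 4 old normal tissues were searched for outliers. In 4 of these 80 groups the highest or lowest sample stood far from the rest by Dixon's criterion, where chance gives about 1 in 20. In old normal tissue, Eif1ax was low in sample 9 (1319, next 1528), as was Eif4e2 (1488, next 1795), and Eif5b was high in sample 10 (1176, next 959.8). In young normal tissue, Eif3b was high in sample 1 (3701, next 3142).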

How the results depend on the processing

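Over the alternatives tried, the number of genes higher than normal tissue was 33 to 37 in early and 30 to 36 in late lymphomas. Genes lower than normal tissue numbered 1 in early and 0 in late lymphomas after centring, and 1 in late lymphomas with no filter or with old normal tissue only. The single gene higher in late than in early lymphomas became 0 with no filter, with centring, with RNA ratios as covariates, with the mean of a gene's probe sets, without late lymphomas 120, 125, 129, 137 and 138, and without 117, 127, 130, 131 and 133. The 10 lower genes became 1 with RNA ratios and 3 without the first of these sets of 5. Slopes on age of onset in early lymphomas (4) became 0 with quantile normalization, 31 with centring, 2 with RNA ratios and 0 without lymphomas 1 and 2. Slopes on Myc in early lymphomas (2) became 0 with no filter or quantile normalization, 34 with centring, 1 with RNA ratios and 1 without lymphomas 2 and 21. In late lymphomas (6) they became 3 with no filter, 12 with quantile normalization, 22 with centring and 0 without lymphomas 126 and 136. The 8 genes of larger spread became 1 with centring, and 0 with RNA ratios or without lymphomas 120, 125, 129, 137 and 138. Signs turned for Eif4g2 against normal tissue in early lymphomas (0.31 with centring, 0.27 with the mean of probe sets) and for Eif4g3 (0.31 in early, 0.20 in late, with centring). Late against early, they turned with the mean of probe sets for Eif2b5 (0.0685) and Eif4g2 (-0.12). The cause was not tested. With the shared title number as a replicate block, 34 genes were higher in early lymphomas, though the labels do not say that the numbers pair the samples. Leaving out each old normal tissue in turn kept 0 genes called by age. Dim probe sets such as that of Eif5a2 are the least precise here.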
